A study of Mus musculus with 20 samples.

Results

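A set of 10 genes of the myelinating oligodendrocyte membrane were followed in the white matter of Zdhhc9 knockout and wild-type mice. The set holds the tetraspanins Cd9, Cd81, Cd82, Tspan2 and Tspan15, the proteolipid Gpm6b, the MARVEL protein Pllp (plasmolipin), the pleckstrin homology domain protein Plekhb1, the junctional adhesion molecule Jam3 and the claudin domain protein Cldnd1. They were taken by symbol, through the Ensembl identifier with its version removed, and all 10 were found among the 46517 genes of the deposited table. The tissues sequenced were the dissected corpus callosum, the fibre tract between the hemispheres, and the optic nerve. The callosum gave 6 knockout and 5 wild-type libraries, and the optic nerve gave 5 knockout and 4 wild-type libraries. The labels call the genotype a Zdhhc9 knockout, while the series' design text speaks of a knockdown. The sources used here do not give strain, sex, age or the form of the allele, nor whether animals were pooled.

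Tetraspanins cross the membrane 4 times and gather integrins, immunoglobulin proteins and proteases into membrane domains, and many of them carry fatty acids on cysteines next to the membrane. Zdhhc9 encodes an enzyme that attaches such fatty acids to proteins. Myelin holds a few very abundant proteins, among them myelin basic protein (Mbp), and a larger number of minor membrane proteins, to which these genes belong. Several of the 10 are not confined to oligodendrocytes: Cd9, Cd81, Cd82, Gpm6b and Jam3 are also made by astrocytes, immune, vascular or other cells.

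Library totals ranged from 15401130 to 26095622 estimated reads. Zdhhc9 itself checked the labels: it stood at 47.9 ± 5.34 CPM in knockout callosum against 183.5 ± 18.2 in wild-type callosum (SD, n = 6 and 5), and the genotypes did not overlap in either tissue. CPM stands for scaled counts, per 1e6 counts of a library, after scaling by TMM factors over the 20 libraries. The summed level of 10 oligodendrocyte markers ran from 54080 to 90860 CPM in wild-type and from 34360 to 67250 CPM in knockout callosum, and that of 10 neuron markers from 1063 to 3035 and from 1193 to 4259 CPM. In the optic nerve the neuron markers summed to between 229.0 and 445.0 CPM over both genotypes. No oligodendrocyte or neuron marker was at 0 in every library of a group. In the callosum 4 samples (wild type 28 and 30, knockout 27 and 29) carry numbers of 2 digits and the rest numbers of 6 or 7 digits. In the optic nerve 2 of the 5 knockout libraries have names that mix digits and letters, and the other 3 and all 4 wild-type libraries have 6-digit numbers, so that format and genotype are partly tied there. The labels do not say what the formats stand for. Nothing in the labels says that libraries come from separate animals, so the p-values measure the spread between these libraries.

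**Figure D1:**
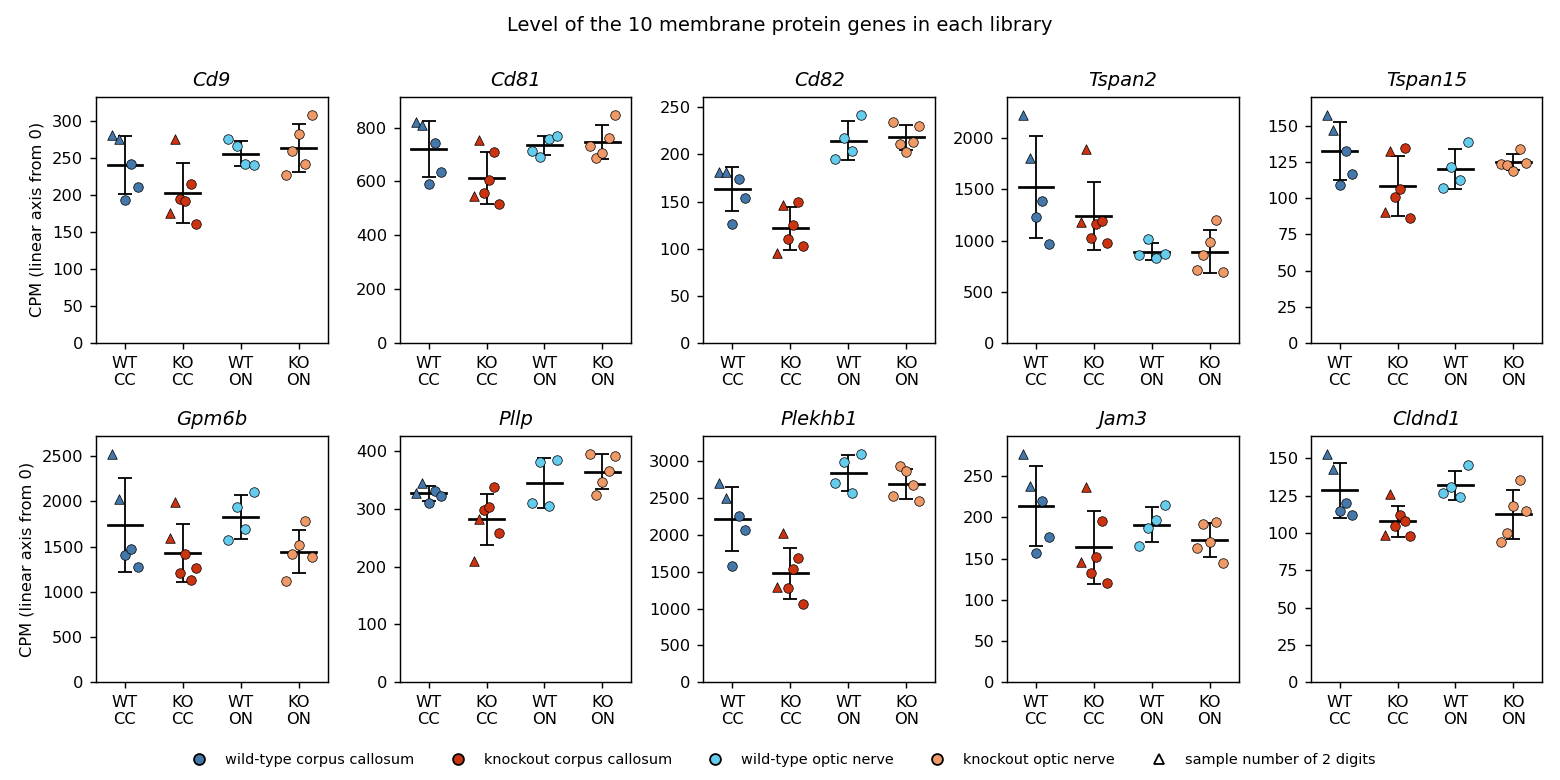
Level of each gene in CPM (linear axis from 0), with 1 point per library, the group mean as a line and the SD as a bar, for wild-type (WT) and knockout (KO) corpus callosum (CC) and optic nerve (ON). Triangles are callosum samples with 2-digit numbers; in Plekhb1 the knockout callosum libraries lie between 1066 and 2023 CPM and the wild-type ones between 1579 and 2709.

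All 10 genes were well expressed in every library, the lowest single value being 86.1 CPM (Tspan15, knockout callosum). Divided by the length of the longest annotated transcript, so that genes can be compared, Plekhb1 had the highest level in wild-type callosum at 795.4 ± 155.5 CPM per kilobase (SD, n = 5). Plekhb1 encodes a small membrane-bound pleckstrin homology protein, also called evectin 1. Cd81 came next at 447.9 ± 64.1 CPM per kilobase, then Gpm6b at 365.5 ± 109.2 and Tspan2 at 340.0 ± 111.3, and the ranges of these 3 overlapped. Cd9 (195.8 ± 31.6) and Pllp (169.5 ± 6.62) also overlapped each other, below the preceding genes in the mean. Jam3 (110.1 ± 24.8), Cd82 (89.5 ± 12.8) and Cldnd1 (59.8 ± 8.49) followed, each overlapping its neighbour. Tspan15 was lowest at 36.5 ± 5.55 CPM per kilobase, and its highest library (43.3) lay under the lowest of Cldnd1 (52.1). The order of the means was the same in knockout callosum. In the optic nerve of both genotypes Cd9 stood above Tspan2 and Cd82 above Jam3, with the other places as in the callosum. The order of the middle genes depended on the length used. Divided by the length of all annotated exons, Tspan2 (320.6 CPM per kilobase), Gpm6b (310.9) and Cd81 (205.3 to 284.5 over the 5 libraries) followed Plekhb1 (598.3) in wild-type callosum, Pllp (156.7) stood above Cd9 (117.6), and Tspan2 (187.8) stood above Cd9 (125.2) in wild-type optic nerve as well. Plekhb1 stayed highest and Tspan15 lowest in all 4 groups by both lengths. The 10 genes together made up 0.741 ± 0.164% of the TMM-scaled library total in wild-type callosum and 0.575 ± 0.113% in knockout callosum. In the optic nerve they made up 0.755 ± 0.0611% in wild type and 0.703 ± 0.0533% in knockout. The ± values are SDs, with n = 5, 6, 4 and 5 in that order. These are not shares of the unscaled counts, because the TMM factors ran from 0.930 to 1.057 over the libraries. The order of the wild-type tissues, whose values lie close, may therefore depend on the scaling.

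The promoters of 3 genes are shown because these genes stand at the ends of the patterns described here. Plekhb1 had the lowest knockout-to-wild-type ratio in the callosum and Gpm6b the lowest in the optic nerve. Pllp had the lowest correlation with the oligodendrocyte markers over all callosum libraries, though not without the 2 most extreme libraries. The sequences come from RefSeq windows on GRCm38.p6, 5′ to 3′ on the gene's own strand, and end before the first annotated start. Capitals mark a match to GGGCGG (GC box) or to ACAAAG (a SOX factor core).
Plekhb1, chr7:100662415-100662644, minus strand: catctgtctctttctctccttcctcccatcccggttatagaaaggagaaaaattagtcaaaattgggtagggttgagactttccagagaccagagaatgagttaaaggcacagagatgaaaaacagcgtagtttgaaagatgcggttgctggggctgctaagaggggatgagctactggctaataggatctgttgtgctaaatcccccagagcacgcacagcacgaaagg
Gpm6b, chrX:166238693-166238910, plus strand: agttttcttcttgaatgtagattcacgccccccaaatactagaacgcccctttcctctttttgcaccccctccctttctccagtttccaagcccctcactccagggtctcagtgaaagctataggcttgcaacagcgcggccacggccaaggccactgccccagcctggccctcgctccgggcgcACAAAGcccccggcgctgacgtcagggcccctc
Pllp, chr8:94696279-94696492, minus strand: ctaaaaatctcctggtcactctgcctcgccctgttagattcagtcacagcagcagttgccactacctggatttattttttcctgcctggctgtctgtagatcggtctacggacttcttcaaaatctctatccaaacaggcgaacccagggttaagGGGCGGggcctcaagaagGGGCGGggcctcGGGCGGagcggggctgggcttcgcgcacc
The 250 bases upstream of 9 of the 10 genes were searched on both strands, Jam3 having no entry, for ACAAAG or ACAATG (SOX), CTGGCAC or CTGGTAC (MYRF), GGGCGG and TATAAA. Gpm6b and Tspan15 held 1 SOX match each, and 25.2% of all 32851 windows held at least 1. GGGCGG occurred 3 times in Pllp and in Cd81, 2 times in Cd9 and 1 time in Cd82, and in 32.7% of all windows. None of the 9 held the MYRF letters (5.93% of all windows) or TATAAA (12.4%), and Plekhb1, Tspan2 and Cldnd1 held none of the 4 motifs. The Plekhb1 window thus shows no capitals, which says only that these letters are not in it.

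In the corpus callosum the mean of every one of the 10 genes was lower in knockout than in wild-type libraries, but none passed the test. Log2 fold changes ran from -0.60 to -0.22 with a median of -0.29, while the median over all 15519 genes tested was -0.01 and 52.5% of them were negative. Of the 10, 0 were called at an edgeR adjusted p under 0.05, where 0.0387% of all genes were (6 genes), and 3 had an unadjusted p under 0.05 (Plekhb1, Cd82 and Cldnd1), where 11.7% of all genes did. The libraries of the 2 genotypes overlapped for all 10, and 0.889% of all genes had groups that did not overlap. DESeq2 also called 0 of the 10 (1.12% of all genes), whereas limma-voom with sample quality weights called 7 of the 10 and 18.0% of all genes.

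Plekhb1 (ENSMUSG00000030701.15, chr7:100642892-100662414, minus strand, GRCm38) showed the largest difference. The 5 wild-type callosum libraries stood at 2709, 2501, 1579, 2257 and 2062 CPM, and the 6 knockout libraries ran from 1066 through a median of 1411 to 2023 CPM. Of the knockout libraries, 4 of 6 lay under the lowest wild-type one, and the rest fell within the wild-type range. The log2 fold change was -0.60 ± 0.18 (SE, edgeR adjusted p = 0.298), a ratio of 0.662.

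Cd82 (ENSMUSG00000027215.12, chr2:93419111-93463140, minus strand), a tetraspanin known in many cell types for restraining adhesion and migration, came second. Its wild-type libraries held 180.9, 181.1, 126.4, 174.2 and 154.1 CPM, and its knockout libraries ran from 95.8 through a median of 117.7 to 149.6 CPM. Again 4 of 6 knockout libraries lay under all wild-type ones. The log2 fold change was -0.43 ± 0.14 (SE, edgeR adjusted p = 0.342).

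Jam3 (ENSMUSG00000031990.13, chr9:27097384-27155421, minus strand), an adhesion molecule of cell junctions that binds Jam2, had a log2 fold change of -0.39 ± 0.19 (SE, edgeR adjusted p = 0.450). Its wild-type callosum libraries lay at 276.8, 238.4, 156.8, 220.5 and 176.5 CPM and its knockout libraries between 119.9 and 237.3, with a median of 148.7. Cldnd1 (ENSMUSG00000022744.11, chr16:58727910-58734251, plus strand), a claudin relative, had the smallest standard error of the 10, at -0.26 ± 0.10 (SE, edgeR adjusted p = 0.397). Here too 4 of 6 knockout libraries lay under every wild-type library, both for Jam3 and for Cldnd1.

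Among the other tetraspanins, Tspan15 (ENSMUSG00000037031.9, chr10:62185396-62231251, minus strand), a partner of the protease Adam10, had a log2 fold change of -0.30 ± 0.14 (SE). Cd9 (ENSMUSG00000030342.8, chr6:125460266-125494791, minus strand) and Cd81 (ENSMUSG00000037706.15, chr7:143052739-143067934, plus strand) are close relatives that both bind the immunoglobulin protein Igsf8. They stood at -0.26 ± 0.15 and -0.24 ± 0.13 (SE). Adjusted p-values of these 3 by edgeR lay between 0.440 and 0.493.

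Tspan2 (ENSMUSG00000027858.12, chr3:102734529-102801513, plus strand), a tetraspanin of the oligodendrocyte lineage, varied most within the wild-type group. Its wild-type callosum libraries stood at 2229, 1809, 1234, 1387 and 963.4 CPM, the first 2 being the samples with 2-digit numbers. Of the knockout libraries, number 29 reached 1895 CPM and the other 5 lay between 977.1 and 1188. The log2 fold change was -0.31 ± 0.22 (SE, edgeR adjusted p = 0.578), and without wild-type sample 28 it was -0.13. Gpm6b (ENSMUSG00000031342.16, chrX:166238911-166388988, plus strand), a four-span proteolipid that is also made by neurons and astrocytes, showed the same layout. Its wild-type libraries stood at 2522, 2021, 1411, 1473 and 1278 CPM, and its knockout libraries ran from 1129 through 1340 to 1989. The log2 fold change was -0.29 ± 0.20 (SE, edgeR adjusted p = 0.560), and -0.12 without sample 28.

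Pllp (ENSMUSG00000031775.4, chr8:94674894-94696278, minus strand) encodes plasmolipin, a proteolipid of myelin and of epithelial membranes. Its wild-type callosum libraries were the most even of all, at 327.1, 343.7, 309.1, 331.3 and 321.2 CPM. The knockout libraries ran from 210.1 to 337.6 CPM with a median of 289.9, and 5 of 6 lay under every wild-type library. The log2 fold change was -0.22 ± 0.11 (SE, edgeR adjusted p = 0.452), the smallest of the 10.

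**Figure D2:**
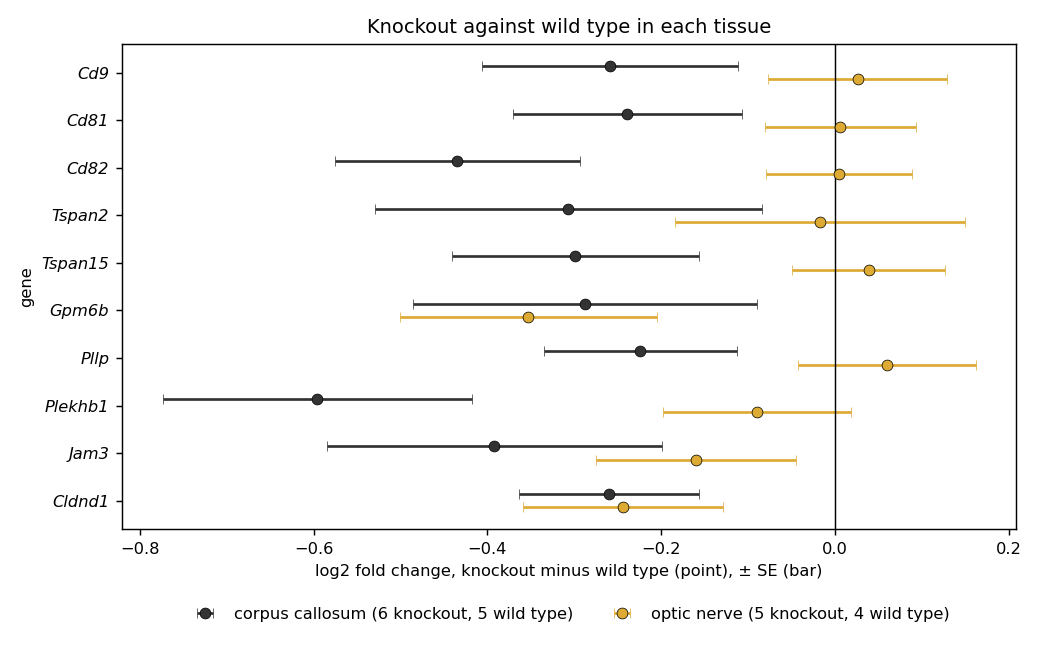
Log2 fold change of knockout against wild type for each gene (points) with its SE (bars), in corpus callosum (dark) and optic nerve (yellow). All 10 callosum points lie under 0, from -0.60 to -0.22, and the optic nerve points lie on both sides, from -0.35 to 0.06.

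The callosum values moved together with markers of the tissue's cells. All 10 oligodendrocyte markers were lower in the mean in knockout callosum, with a median log2 fold change of -0.50, and all 10 neuron markers were higher, with a median of 0.65, while 0 of either list were called. All 7 striatal neuron markers were positive too, with a median of 0.83, and all 7 microglia markers were negative, with a median of -0.35. Markers of newly formed oligodendrocytes were negative in 5 of 5 (median -0.48) and those of astrocytes in 6 of 7 (median -0.23). In bulk tissue, fewer cells of a type and less RNA per cell cannot be told apart. With the neuron markers' mean level as a covariate, the median of the 10 genes was -0.12, and Plekhb1 stood at -0.37 ± 0.12, Cd82 at -0.29 ± 0.12 and Tspan2 at 0.04 ± 0.11 (SE). With the mean level of the oligodendrocyte markers as the covariate, an alternative added after the data were seen, the median was 0.08. The values then ran from -0.13 for Plekhb1 to 0.24 for Tspan2, with 4 of 10 negative, and 0 of the 10 had an unadjusted p under 0.05. Since the markers are themselves myelin genes, a change that the 10 genes share with the rest of myelin is taken out by that covariate.

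Within each number format all 10 genes were again negative. The 2-digit samples alone (2 against 2) gave a median of -0.38, and the 6- and 7-digit samples alone (4 knockout, 3 wild type) gave -0.17. Plekhb1 stood at -0.62 ± 0.26 and -0.52 ± 0.19, and Cd82 at -0.55 ± 0.22 and -0.33 ± 0.16 (SE). The wild-type means of Tspan2 and Gpm6b were 2019 and 2272 CPM in 2-digit samples (n = 2) and 1195 and 1388 CPM in the others (n = 3). Format and other properties of these samples cannot be told apart.

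**Figure D3:**
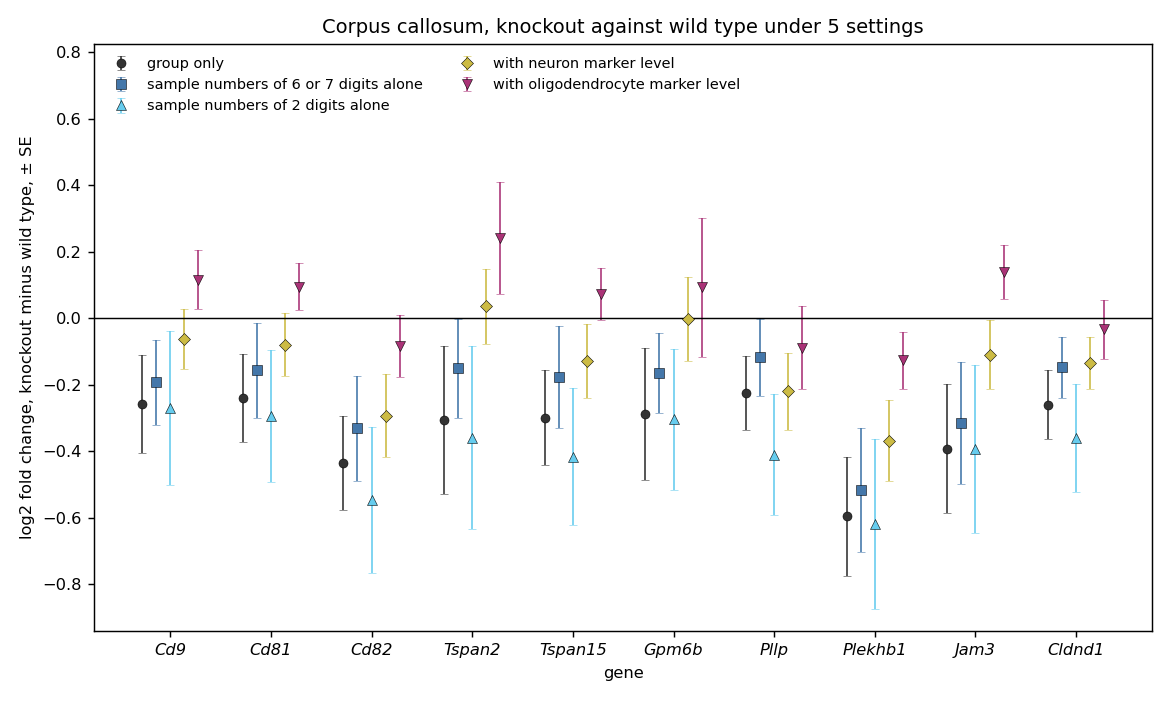
Log2 fold change of knockout against wild type in the corpus callosum (points) with its SE (bars) for each gene under 5 settings. The group-only, number-format and most neuron-covariate points lie at or below 0, and with the oligodendrocyte covariate 6 of 10 lie above 0.

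In the optic nerve the genes did not share a direction. Of the 10, 5 were negative and 5 positive, with a median log2 fold change of -0.01 beside 0.01 over the 15556 genes tested, 47.2% of which were negative. EdgeR called 0 of the 10 (0.0129% of all genes), DESeq2 (0.225%) and limma-voom (0.0129%) also called 0, and 1 of 10 had an unadjusted p under 0.05 by edgeR, where 5.48% of all genes did. No gene had groups that did not overlap, against 2.05% of all genes.

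Gpm6b was the lowest of the 10 in knockout optic nerve. Its wild-type libraries held 1568, 1940, 1689 and 2106 CPM, and its knockout libraries 1117, 1419, 1517, 1782 and 1385. All but 1 of the 5 knockout libraries lay under the lowest wild-type library. The log2 fold change was -0.35 ± 0.15 (SE, edgeR adjusted p = 0.845), and among samples with 6-digit numbers alone it was -0.23 ± 0.15.

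Cldnd1 followed, with 126.9, 130.9, 124.3 and 145.6 CPM in wild type and 94.1, 100.3, 118.1, 135.8 and 114.8 in knockout. Its log2 fold change was -0.24 ± 0.12 (SE), and again 4 of 5 knockout libraries were below all wild-type ones. The first 2 of these knockout values, the lowest, are those of the libraries named with letters, and with 6-digit libraries alone the log2 fold change was -0.11 ± 0.10. Jam3 stood at -0.16 ± 0.12 and Plekhb1 at -0.09 ± 0.11 (SE), and leaving out 1 library moved them between -0.225 and -0.09 and between -0.14 and -0.04. The 5 tetraspanins and Pllp lay between -0.02 (Tspan2) and 0.06 (Pllp), each within 1 standard error of 0. With 6-digit libraries alone (3 knockout, 4 wild type) the median of the 10 genes was 0.03, with 5 of 10 negative and 0 at an unadjusted p under 0.05. The oligodendrocyte markers had a median of -0.11 in the optic nerve, with 6 of 10 negative, and the neuron markers a median of 0.49, with 7 of 10 positive.

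Set against each other, the knockout effects of the tissues (optic nerve minus callosum) gave a difference that was positive for 9 of 10 genes with a median of 0.29, against 0.03 over all 16440 genes, 46.0% of which were negative. EdgeR, DESeq2 and limma-voom each called 0 of the 10 and 0.00% of all genes. By edgeR, 2 of 10 had an unadjusted p under 0.05, where 6.83% of all genes did: Plekhb1, with a difference of 0.51 ± 0.22, and Cd82, with 0.45 ± 0.18 (SE, edgeR adjusted p = 0.725 for both). Cldnd1 (0.02 ± 0.15) and Gpm6b (-0.06 ± 0.26) had differences smaller than their SE. The oligodendrocyte markers were positive in 10 of 10, with a median of 0.43. This contrast uses the same libraries as the 2 comparisons above and is no separate evidence for either.

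Between the tissues themselves, Cd82 was higher and Tspan2 lower in the optic nerve by adjusted p in both genotypes, Plekhb1 was higher in knockout, and none of the 10 met the call rule. A call here needed an adjusted p under 0.05 and at least a 2-fold difference (absolute log2 fold change of 1). In wild-type mice 0 of the 10 were called, where 26.2% of the 16440 genes were, and in knockout mice 0 of the 10, where 30.1% were. By adjusted p alone, 2 of the 10 differed in wild type (51.3% of all genes) and 6 in knockout (62.9%). In wild type 1 was higher in optic nerve (25.3% of all genes) and 1 lower (26.0%), and in knockout 5 were higher (31.9%) and 1 lower (31.0%). The groups did not overlap for 1 gene in wild type (42.5% of all genes) and for 2 in knockout (43.5%). DESeq2 called 0 of the 10 in both (26.4% of all genes in wild type and 30.2% in knockout). Limma-voom called 0 in wild type (26.6%) and 1 in knockout (31.7%), Plekhb1, at 1.003 ± 0.12 (SE).

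Cd82 was higher in optic nerve in both genotypes. Wild-type optic nerve held 194.8, 217.2, 204.0 and 241.9 CPM and knockout optic nerve 234.1, 211.1, 202.6, 212.7 and 229.8. Every one of these 9 libraries exceeded every callosum library, the highest of which had 181.1 CPM. The log2 difference was 0.39 ± 0.13 in wild type (SE, edgeR adjusted p = 0.0162) and 0.84 ± 0.12 in knockout (edgeR adjusted p = 3.53e-06).

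Plekhb1 held 2701, 2983, 2566 and 3096 CPM in wild-type and 2531, 2934, 2874, 2672 and 2461 CPM in knockout optic nerve. All 5 knockout optic nerve libraries stood above all 6 knockout callosum libraries, whereas the wild-type tissues overlapped. The log2 difference was 0.87 ± 0.15 in knockout (SE, edgeR adjusted p = 3.27e-05). In wild type it was 0.35 ± 0.16 (edgeR adjusted p = 0.0756), and 0.43 without wild-type callosum sample 28 (edgeR adjusted p = 0.0365). With 6- and 7-digit callosum libraries only it was 0.55 ± 0.17 (edgeR adjusted p = 0.0118), and it also passed with a stricter filter of 1 CPM (edgeR adjusted p = 0.0358) and by limma-voom (adjusted p = 0.0443).

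Tspan2 went the other way, with less in the optic nerve. Wild-type optic nerve held 862.7, 1013, 831.4 and 864.9 CPM, and knockout optic nerve 716.2, 859.8, 984.3, 1200 and 689.5. The log2 difference was -0.77 ± 0.23 in wild type (SE, edgeR adjusted p = 0.00724) and -0.48 ± 0.20 in knockout (edgeR adjusted p = 0.0463). The callosum libraries with 2-digit numbers weighed on both: with 6- and 7-digit callosum libraries only, the wild-type value was -0.40 ± 0.21 (edgeR adjusted p = 0.129), and with 6- and 7-digit libraries only, the knockout value was -0.19 ± 0.23 (edgeR adjusted p = 0.527). The knockout value also failed the threshold in 7 of 11 fits that left out 1 library, the highest edgeR adjusted p being 0.142 (-0.32 without callosum sample 29).

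Cd9, Cd81 and Pllp passed by adjusted p alone in knockout mice, with more in the optic nerve. The log2 differences were 0.38 ± 0.13, 0.28 ± 0.11 and 0.37 ± 0.10 (SE, edgeR adjusted p = 0.0132, 0.0299 and 0.00358). In wild type they were 0.09 ± 0.14, 0.03 ± 0.12 and 0.08 ± 0.11 (SE). With 6- and 7-digit callosum libraries only, the wild-type values were 0.27, 0.18 and 0.13 and did not pass, and the knockout values among 6- and 7-digit libraries were 0.54, 0.37 and 0.30, all passing. The difference between genotypes is the contrast above, in which none was called. Cd81 failed the threshold in 5 of 11 fits that left out 1 library, with a highest edgeR adjusted p of 0.0863 (0.23 without library KO_ON_719856). Tspan15, Jam3, Cldnd1 and Gpm6b did not pass in either genotype by edgeR, while limma-voom passed Tspan15 (0.28 ± 0.09, adjusted p = 0.0118) and Jam3 (0.29 ± 0.12, SE, adjusted p = 0.0403) in knockout. Astrocyte markers were higher in the optic nerve as well, with a sum of 8909 to 11680 CPM in wild type against 3354 to 4251 in wild-type callosum, and markers of fibroblasts and meninges summed to 7144 to 11570 against 630.0 to 1028 CPM. Their part in the tissue values of Cd9, Cd81 and Cd82 was not tested.

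**Figure D4:**
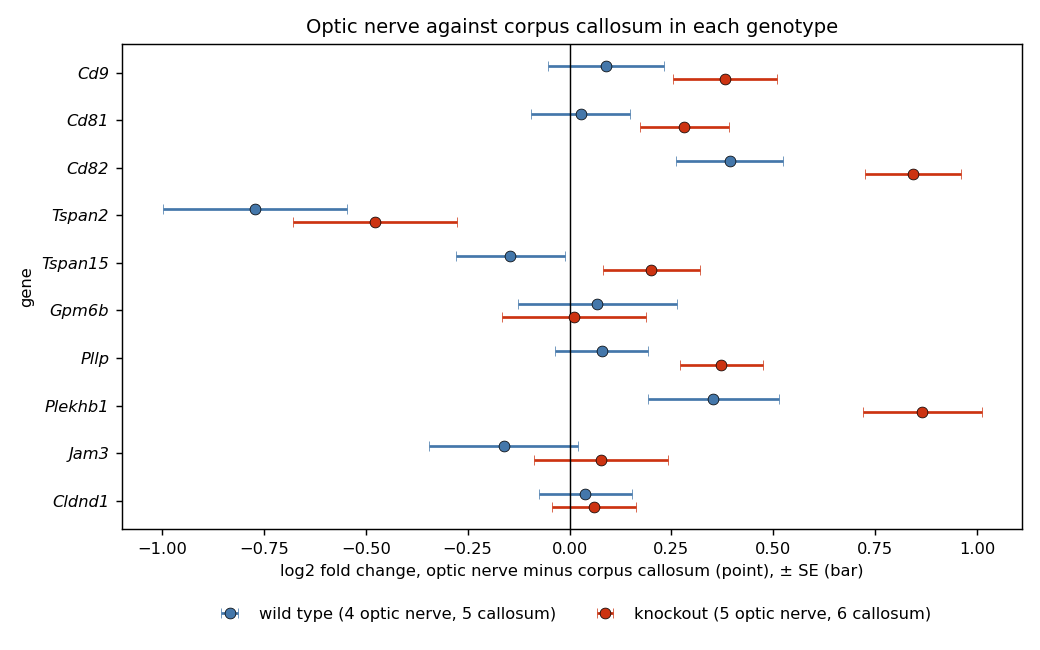
Log2 difference of optic nerve against corpus callosum for each gene (points) with its SE (bars), in wild-type (blue) and knockout mice (red). Cd82 and Plekhb1 lie highest in both genotypes and Tspan2 lowest, at -0.77 in wild type.

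Between tissues, some relatives and partners of the 10 genes differed more than the 10 genes did. Over all genes, 26.2% were called between tissues in wild type and 30.1% in knockout, in either direction. Between genotypes, 0 of the relatives and partners were called in callosum (0.0387% of all genes) or optic nerve (0.0129%). In the difference of the effects 0 were called as well (0.00% of all genes). Of 22 other tetraspanins tested, 9 were called higher and 2 lower in wild-type optic nerve, and 12 and 2 in knockout. Cd151, which binds laminin receptors, rose from 26.9 to 138.9 CPM in wild type (log2 difference 2.37 ± 0.15, SE), and Tspan7, the most abundant of the other tetraspanins in the callosum and common in neurons, fell from 637.3 to 172.2 CPM. Tspan11 rose from 0.950 to 31.1 CPM and Tspan18 fell from 28.4 to 10.4 CPM, while Tspan8, called higher, had a mean of 9.38 CPM in wild-type optic nerve and 0.0185 CPM in wild-type callosum. Tspan3 and Cd63, the most abundant of them in the optic nerve, held 357.0 and 265.3 CPM there in wild type. Of 10 partner proteins, 4 were called higher and 0 lower in each genotype, among them the laminin receptor chains Itga6 (1.30 ± 0.11) and Itgb4 (1.25 ± 0.16, wild type, SE). The others were Itga3, at 43.1 against 12.4 CPM, and the fatty acid transporter gene Cd36, at 1.49 against 0.190 CPM. The integrin chain gene Itgb1, abundant in both tissues, stood at 0.70 ± 0.15 (SE). Igsf8, the partner of Cd9 and Cd81, stood at 252.7 CPM in knockout and 257.7 in wild-type callosum. It was lower in the optic nerve, by -0.78 ± 0.13 in wild type and -0.51 ± 0.11 in knockout (SE). Both values passed by adjusted p alone (edgeR adjusted p = 2.98e-05 and 0.000585) without reaching the 2-fold minimum. In each genotype 2 of the 10 partners were negative.

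The 13 four-span proteolipids and MARVEL proteins tested had 4 called higher and 2 lower in wild-type optic nerve (26.2% of all genes in either direction). Pmp22, a protein of peripheral myelin that fibroblasts also make, rose from 51.2 to 259.4 CPM, and Gpm6a, the neuronal relative of Gpm6b, fell from 462.1 to 80.4 CPM. Cmtm7 (1.83 ± 0.16), Cmtm3 (1.84 ± 0.16) and Myadm (1.94 ± 0.19) were the other higher ones and Mal2 (-1.46 ± 0.41, SE) the other lower one. Of 10 junction proteins, 2 were called higher and 2 lower in wild type (26.2% of all genes in either direction). Jam2, the binding partner of Jam3, rose by 1.26 ± 0.13 (SE), while Jam3 stood at -0.16 ± 0.18 and moved between -0.255 and -0.05 when 1 library was left out. F11r, which encodes another junctional adhesion molecule, was higher (1.17 ± 0.12), and the polarity gene Pard6b (-1.83 ± 0.32) and the tight junction gene Cgn (-1.15 ± 0.38, SE) were lower. Cldn5, a claudin of blood vessels, was called in knockout (1.01 ± 0.12, SE). The abundant junction gene Tjp1 stood at 0.43 ± 0.13 (SE) in wild type. Of 5 pleckstrin relatives, Plekha1 was called lower in wild type, at -1.105 ± 0.18 (SE), and 0 were called in knockout (30.1% of all genes). The other abundant ones, Plekhh1 and Plekhg3, held 404.2 and 173.9 CPM in wild-type optic nerve.

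Between knockout and wild-type callosum, 15 of 20 other tetraspanins were negative with a median of -0.19, 5 of 9 partner proteins with -0.04, 9 of 13 four-span proteins with -0.24, 7 of 10 junction proteins with -0.04 and 4 of 5 pleckstrin relatives with -0.21. The compact myelin genes, which are the same 10 genes as the oligodendrocyte markers, had a median of -0.50, with Mbp at -0.62 ± 0.20 (SE). Plekhb1 at -0.60 was close to Mbp, and the other 9 genes were nearer to 0.

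The 10 genes varied together between callosum libraries of the same genotype. After the group mean was taken from each log2 CPM value, the 45 pairs had a median Pearson correlation of 0.84 over the 11 callosum libraries (range -0.19 to 0.98, 38 pairs above 0.5). Over the 9 optic nerve libraries the median was 0.23 (range -0.63 to 0.88, 13 pairs above 0.5). These are descriptions: libraries share depth and dissection across genes, and no test was made.

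In the callosum, Cd81 followed the mean level of the oligodendrocyte markers most closely (Pearson r = 0.99, Spearman rho = 0.97, n = 11; r = 0.99 without the 2 most extreme libraries). Jam3 (r = 0.98), Tspan15 (0.97) and Plekhb1 (0.97) were near it, and Pllp (0.51) and Gpm6b (0.61) followed it least. The order of these last 2 was not stable: without the 2 most extreme libraries Pllp had 0.54 and Gpm6b 0.48. Against the neuron markers Tspan2 had r = -0.91 and Jam3 r = -0.91, whereas Pllp had r = -0.03. Without the 2 libraries most extreme in those markers, r was -0.73 for Tspan2, -0.81 for Jam3 and 0.006 for Pllp. With the astrocyte markers Gpm6b had the highest r of the set, 0.91 (0.95 without the 2 most extreme libraries), and Pllp the lowest, -0.19. In the optic nerve Jam3 (r = 0.82), Plekhb1 (0.79), Tspan2 (0.71), Gpm6b (0.69) and Tspan15 (0.66) followed the oligodendrocyte markers over 9 libraries. Cldnd1 (0.47), Pllp (0.255) and Cd82 (0.19) were lower, and Cd9 (-0.49) and Cd81 (-0.41) did not follow them. The negative values of Cd9 and Cd81 rested on the extreme libraries, since without 2 of them r was 0.21 and 0.10. The same check lowered Jam3 to 0.52, Plekhb1 to 0.72 and Tspan2 to 0.605, whereas Gpm6b (0.81), Tspan15 (0.78) and Cldnd1 (0.775) then stood above them. Against the astrocyte markers of the optic nerve Cd81 had r = 0.87, and 0.525 without the 2 libraries most extreme in those markers. Library KO_ON_719856 had the highest Cd9 (308.1 CPM) and Cd81 (847.1 CPM) of the optic nerve and the lowest Jam3 (144.1 CPM).

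**Figure D5:**
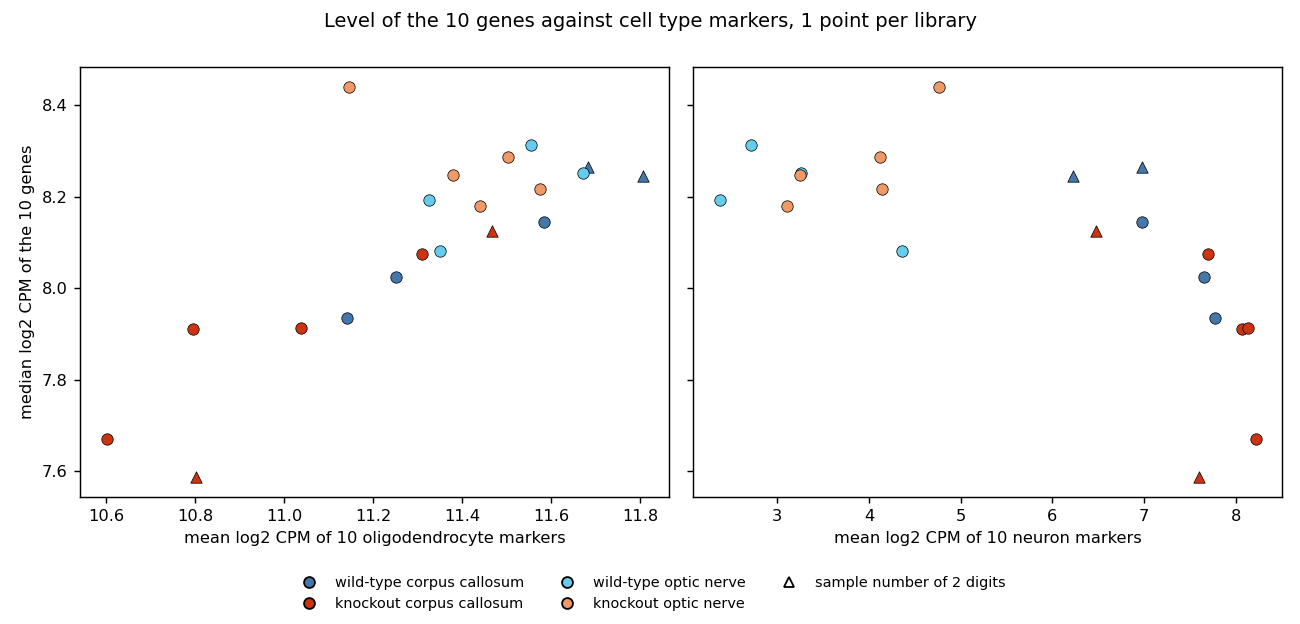
Median log2 CPM of the 10 genes (y axis) against the mean log2 CPM of 10 oligodendrocyte markers (left) and of 10 neuron markers (right), with 1 point per library and triangles for 2-digit sample numbers. Knockout callosum libraries hold the lowest values of both the 10 genes and the oligodendrocyte markers, and optic nerve libraries lie apart on the neuron axis.

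Genes whose pattern over the 20 libraries was most like each member were searched among 11010 genes whose log2 CPM averaged 3 or more, after the group means were removed. Jam3 was closest to Mal (r = 0.98), a MARVEL protein of myelin, then to Ankrd40 (0.97) and Anln (0.96). Plekhb1 was closest to Dbndd2 (0.97), Mobp (0.96), a myelin protein, and Glod4 (0.95). Gpm6b was closest to Qk (0.97), an RNA-binding protein, to the protease gene Adam10 (0.97) and to Rmnd5a (0.96), and Tspan2 to Nras (0.96), Map4k5 (0.96) and the gap junction gene Gjc3 (0.96). Cd82 was closest to Abhd4 (0.96), to the oligodendrocyte transcription factor gene Nkx6-2 (0.95) and to Edem2 (0.94), and Tspan15 to the lysosomal membrane gene Lamp1 (0.96), to Ankrd40 (0.94) and to Sox8 (0.94). The values were lower for the other 4. Cd81 was closest to Adipor1 (0.94), Hadh (0.92) and Dazap2 (0.91), and Cldnd1 to Dync1li2 (0.91), Stxbp6 (0.91) and Nkain2 (0.89). Pllp was closest to the tetraspanin Tspan9 (0.91), Shisa4 (0.89) and Plk3 (0.88), and Cd9 to Apod (0.85), Tle3 (0.84) and Msn (0.84). Each r is over 20 libraries, the highest of a large search, and is given with no test.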

How the data were processed

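Per the labels, RNA was extracted from frozen tissue and sequenced as stranded mRNA libraries. The authors deposited 1 table of estimated counts (expected counts from kallisto, per its file name), with no scaling between libraries, and mm10 is the build named in the submitters' processing notes. Counts were rounded to whole numbers, genes were filtered (filterByExpr, minimum count 10, minimum total 15), and edgeR 4.0.16 quasi-likelihood tests with TMM factors and Benjamini-Hochberg adjustment over all genes were run in R 4.3.3. Knockout was compared with wild type in a fit per tissue, and tissues and the difference of effects in 1 fit of 4 groups. The SE is the absolute log2 fold change over the root of F. Limma 3.58.1 and DESeq2 1.42.0 gave alternatives. Of 46517 identifiers, 46005 matched GENCODE M21, with versions ignored. Per the labels' extract protocol the kit is stranded, but whether counting used strand is not given in the sources used here. The members and all lists were chosen with earlier results of these data known. The text names all members, Zdhhc9, in each list the called genes or, above 6, the 3 most different in each direction, the 2 most abundant of a list, and the 3 most alike genes of each member. Some genes that the rule selects are not reported here.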

Additional observations from a re-analysis of the deposited data

Results flagged for a closer look

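Tspan2 in knockout callosum sample 29 stood far from the other 5 libraries of its group. It had 1895 CPM, the others lay between 977.1 and 1188, and the gap took 0.770 of the group's whole range (Dixon's test, 6 libraries). This was the only one of 40 combinations of gene and group to pass that threshold, which chance alone passes in about 1 of 20. The same library had the highest Cd9, Cd81, Plekhb1, Jam3, Cldnd1 and Gpm6b of the knockout callosum group and the lowest neuron marker level of that group (mean log2 CPM 6.47, the others between 7.59 and 8.21). Without it, the knockout log2 fold change of Tspan2 in the callosum was -0.47.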

How the results depend on the processing

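In the callosum, knockout against wild type, 6 genes of the whole table were called. The count was 41 with all 4 groups in one fit, 174 by DESeq2, 2786 by limma-voom with sample quality weights, 10 with the number format as a covariate, 0 with 2-digit libraries alone, 2 with 6- and 7-digit libraries alone and 3 with the oligodendrocyte covariate. Leaving out 1 library gave 2 to 41, the highest without WT_CCg_685232. Of the members, 7 were called by limma-voom, and the cause was not tested. Their median was -0.12 with the neuron and 0.084 with the oligodendrocyte covariate. Tspan2 stood at 0.036 with the former, and with the latter Cd9 stood at 0.12, Cd81 at 0.10, Tspan2 at 0.24, Tspan15 at 0.074, Jam3 at 0.14 and Gpm6b at 0.093. Leaving out 1 library moved the members' median between -0.39 (without knockout sample 29) and -0.21.

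In the optic nerve 2 genes of the table were called, 35 by DESeq2 and 1 with 6-digit libraries alone. The members near 0 changed sign there. Cd82 stood at -0.00032 with a stricter filter of 1 CPM, -0.006 by limma-voom, -0.005 with 6-digit libraries alone and -0.002 with the fibroblast covariate. Limma-voom gave -0.007 for Cd9 and -0.015 for Pllp. Cd81 stood at -0.007 with the fibroblast and -0.005 with the oligodendrocyte covariate, and Tspan2 at 0.10 with 6-digit libraries alone and 0.039 with the oligodendrocyte covariate. Leaving out 1 library gave -0.028 to 0.083 for Cd9, -0.035 to 0.035 for Cd81, -0.039 to 0.073 for Cd82, -0.16 to 0.068 for Tspan2 and -0.013 to 0.12 for Tspan15.

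For the difference of the effects, Cldnd1 stood at -0.028 with no low-count filter and -0.022 with the stricter one, and Gpm6b at 0.043 by limma-voom. Leaving out 1 library gave -0.053 to 0.081 for Cldnd1, -0.23 to 0.059 for Gpm6b and 0 to 1 called genes of the table (1 without KO_ON_717651). Between tissues in wild type, Cd81 stood at -0.044 by limma-voom, and Tspan15 at 0.026 and Jam3 at 0.072 with 6- and 7-digit callosum libraries only. Leaving out 1 library gave -0.037 to 0.089 for Cd81, -0.01 to 0.11 for Cldnd1 and -0.025 to 0.24 for Gpm6b. In knockout, Gpm6b stood at -0.006 with DESeq2 size factors, with no low-count filter and by DESeq2, and leaving out 1 library gave -0.076 to 0.13 for Gpm6b, -0.019 to 0.21 for Jam3 and -0.014 to 0.12 for Cldnd1. Limma-voom called 1 member there, Plekhb1 at 1.003.

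Of 1070 member values under alternatives, 998 kept direction and side of the call rule (between tissues adjusted p with the 2-fold minimum), 64 changed sign and 8 passed it newly. By adjusted p alone, of 380 member values between tissues 6 passed newly and 16 no longer passed, all of Tspan2 or, in knockout, Cd81. Some sample numbers occur in both tissues, and whether they mark the same animals is not stated. The deviations of same-numbered libraries correlated between -0.15 and 0.13. This cannot show whether they share an animal, since pairs with different numbers were not compared. The main fits left the libraries unpaired. A fit with the sample number as a replicate block was made by limma-voom, and its estimated block correlation was -0.112. It called 0 genes for the difference of effects, 4291 for tissue in wild type and 4918 in knockout. The edgeR fit without a block called 0, 4309 and 4950. These fits differ in tool as well as in block, so the counts do not show what the block alone does. The block fit called 0 members, with medians of 0.27, 0.06 and 0.26. The biological coefficient of variation was 23.7% in the callosum and 20.2% in the optic nerve. No member was under 86.1 CPM in any library.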
